A study of Mus musculus with 8 samples.

Results

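Meg3, Rian and Mirg are noncoding RNA genes that lie one after another on mouse chromosome 12, in the imprinted region between Dlk1 and Dio3. They were followed here in J1 mouse embryonic stem (ES) cells, a male line, in 8 libraries that form 4 groups of 2. All 3 were found by symbol in both deposited gene tables, among 18821 genes measured in either table. They were chosen with their values in these libraries known, in particular their large difference in the knockdown, so their values are given as a description and no difference of theirs is tested. In KD Zscan4 cells, a short hairpin RNA against Zscan4 was given in the pSuper puro vector, and KD control cells had a random control. After transfection with 1000 ng of plasmid and a wait of 24 h, these cells had 2 µg/ml puromycin for 7 days. OE Zscan4 cells carried the coding sequence of Zscan4c in pCMV-tag2, and OE control cells are labelled only as the control of that arm. They had 500 µg/ml G418 for 10 days. All 4 groups grew on gelatin in medium with 15% serum and 10 ng/ml LIF, which keeps ES cells undifferentiated, and the strain is labelled 12910la. Monoclonal cells were then picked, so a group may stand for 1 clone. The labels do not say whether the 2 libraries of a group came from separate clones or cultures, and a p-value then measures only the spread between these libraries, which may be technical. They give no age, as these are cell lines.

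Imprinted genes are transcribed from the chromosome of one parent only. In the Dlk1-Dio3 region, Meg3 (also called Gtl2), Rian and Mirg are transcribed in one direction from the maternal chromosome, and the protein genes Dlk1, Rtl1 and Dio3 from the paternal one. DNA methylation of a control region between Dlk1 and Meg3 on the paternal chromosome sets this pattern. In mouse ES and induced pluripotent stem cells, the maternal RNAs are known to be silent in some lines and clones and active in others. DNA methylation and parental alleles were not analysed here.

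The 3 genes are on the plus strand of mm10 (GENCODE vM21). Meg3 (ENSMUSG00000021268), a long noncoding RNA known to bind chromatin regulators, spans positions 109541001 to 109571726 and starts 77.7 kb after the end of Dlk1. Its span holds 2 microRNA genes. Rian (ENSMUSG00000097451), a host transcript of small nucleolar RNAs (snoRNAs), spans 109603940 to 109661716 and begins 32.2 kb after Meg3 ends. Within it the annotation places 13 snoRNA genes and 4 microRNA genes. Mirg (ENSMUSG00000097391), a host transcript of a microRNA cluster, spans 109729764 to 109749460, begins 68.0 kb after Rian ends and holds 15 microRNA genes. The exons of the 3 genes cover 18089, 18234 and 7292 bases in this order.

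The windows from 250 bases before to 50 bases after the annotated start (RefSeq, GRCm38.p6, plus strand, the most upstream start listed) are shown for Meg3 and Rian, the most abundant of the 3 RNAs, whose starts differ in base content. Capitals mark places that match TGACGTCA (the cyclic AMP response element), TATAAA (the TATA box) or TGCCGC (a hexamer bound by ZFP57, a keeper of imprints), each searched on both strands.
Meg3, chr12:109540746-109541045: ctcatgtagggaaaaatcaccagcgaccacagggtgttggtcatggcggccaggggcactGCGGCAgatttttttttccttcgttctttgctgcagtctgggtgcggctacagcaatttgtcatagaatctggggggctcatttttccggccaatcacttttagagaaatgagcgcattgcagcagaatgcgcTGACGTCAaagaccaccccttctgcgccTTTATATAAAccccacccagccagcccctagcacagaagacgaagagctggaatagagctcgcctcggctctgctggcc
Rian, chr12:109603695-109603994: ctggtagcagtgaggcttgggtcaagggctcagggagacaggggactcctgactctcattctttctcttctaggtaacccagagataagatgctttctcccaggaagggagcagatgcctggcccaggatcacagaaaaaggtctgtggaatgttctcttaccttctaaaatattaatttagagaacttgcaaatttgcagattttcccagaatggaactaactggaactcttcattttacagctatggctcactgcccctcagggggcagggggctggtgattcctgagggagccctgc
The Meg3 window held 13 CpG pairs, where the median of 32851 mouse windows of this length was 7. It has TGACGTCA 57 bases before the start, a match found in 1.79% of all windows. TATAAA occurs at 2 overlapping places, 29 and 25 bases before the start, and 13.6% of windows have at least one match. TGCCGC occurs on the minus strand 190 bases before the start, and 11.6% of windows hold it. The Rian window held 0 CpG pairs and none of these letters. The window at the RefSeq start of Mirg, which lies downstream of its GENCODE start, held 10 CpG pairs and none of these letters.

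Some microRNAs carried by the host RNAs are shown next, because they are what such host transcripts are best known for. The 5′ to 3′ mature sequences are from RefSeq, with the seed (bases 2 to 8, which pairs with targets) in capitals. Those of Meg3 lie in hairpins wholly within its exons.
miR-770-5p (Meg3): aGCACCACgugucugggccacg
miR-770-3p (Meg3): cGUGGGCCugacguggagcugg
miR-1906 (Meg3): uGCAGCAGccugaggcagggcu
Those chosen for Rian come from hairpins outside its annotated exons.
miR-341-3p (Rian): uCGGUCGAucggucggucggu
miR-370-3p (Rian): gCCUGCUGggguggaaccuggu
In Mirg, the hairpins of miR-134, miR-485, miR-377 and miR-410 lie wholly in its exons.
miR-134-5p (Mirg): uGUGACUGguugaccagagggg
miR-485-3p (Mirg): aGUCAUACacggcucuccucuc
miR-377-3p (Mirg): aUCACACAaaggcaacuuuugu
miR-410-3p (Mirg): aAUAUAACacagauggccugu
The 19 hairpin genes with a RefSeq sequence gave 35 mature microRNAs with 34 distinct seeds. The seed that occurred more than once was shared by these, both within Mirg and outside its exons.
miR-453 (Mirg): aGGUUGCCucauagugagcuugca
miR-496a-5p (Mirg): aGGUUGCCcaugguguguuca
Mature microRNAs and snoRNAs were not measured in these gene tables, so the values that follow are of the host transcripts only.

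The gene tables stand for 17.39 to 22.38 M reads per library, in the authors' normalised reads (whole reads divided by 1 factor per library). Zscan4c itself had 11.2 and 15.5 normalised reads in KD Zscan4, against 575 and 566 in KD control, and 1074 and 981 in OE Zscan4, against 60.1 and 75.2 in OE control. It therefore differed in the labelled direction in both arms, by -5.33 (SE 0.19, limma adjusted p = 3.0e-09) and 3.91 (SE 0.13, limma adjusted p = 6.3e-13) on the log2 scale. Near-identical Zscan4 copies and the plasmid's coding sequence share its reads. All 8 ES cell markers on the list, Pou5f1 and Nanog among them, were measured. They summed to 126400 to 131743 in KD Zscan4, against 123678 to 125068 in KD control, where 3 rose and 2 fell. In the overexpression they summed to 151012 to 152045 in OE Zscan4, against 111785 to 114989 in OE control, and 7 of 8 rose (Zfp42 by 1.08, Klf4 by 0.84), in the direction of the 3 RNAs; their part in the levels of those RNAs was not tested. A gene was called at a false discovery rate of 0.05, and 35.7% of genes tested in the knockdown and 44.3% in the overexpression were called.

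In the knockdown, all 3 noncoding RNAs were abundant in KD Zscan4 cells and close to absent in KD control cells. Rian had 1726 and 1769 normalised reads in KD Zscan4, against 5.37 and 3.37 in KD control. Both KD Zscan4 libraries were thus alike, and both KD control libraries had under 10 reads. The means were 1747 ± 30.0 in KD Zscan4 and 4.37 ± 1.42 in KD control (SD, n = 2 each), a difference of 8.37 (SE 0.19) on the log2(value + 1) scale. In reads, 3523 stood against 9, a ratio of 390 with a 95% counting interval of 205 to 853. Such intervals cover counting error only.

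Meg3, which lies before Rian, had 548.0 and 832.8 normalised reads in KD Zscan4, against 0 and 2.25 in KD control. The KD control library at 0 held 21762116 reads, so a count of 0 (limit 3 reads) allows up to 0.138 reads per M reads. The means were 690 ± 201 in KD Zscan4 and 1.12 ± 1.59 in KD control (SD, n = 2 each). The ratio of reads was 696 (1398 against 2 reads, interval 192 to 5753), and the fitted log2 difference was 8.55 (SE 0.45). Within KD Zscan4, replicate 2 had 1.52 times the Meg3 level of replicate 1 (counting interval 1.36 to 1.70). Rian did not share that gap, with a replicate ratio of 1.02 (0.959 to 1.10).

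Mirg, the last in line, was the least abundant. It had 101.5 and 85.4 normalised reads in KD Zscan4, against 1.79 and 0 in KD control. The second KD control library held 17392177 reads, so its 0 allows up to 0.172 reads per M reads. The means were 93.4 ± 11.4 in KD Zscan4 and 0.896 ± 1.27 in KD control (SD, n = 2 each), and the ratio of reads was 93.6 (188 against 2 reads, interval 25.6 to 779). The fitted log2 difference was 5.82 (SE 0.51). With 1 KD control library left out, the log2 difference was 7.70 to 9.40 for Meg3, 8.10 to 8.64 for Rian and 5.08 to 6.56 for Mirg. The groups did not overlap for any of the 3, where 67.8% of all genes of the table had groups that did not overlap.

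In the overexpression, OE Zscan4 cells also had more of each RNA than OE control cells, and the OE control cells were not silent. Rian had 277.5 and 272.5 normalised reads in OE Zscan4, against 115.4 and 138.0 in OE control. The difference was 1.12 (SE 0.14) on the log2 scale, with means of 275 ± 3.57 in OE Zscan4 and 127 ± 16.0 in OE control (SD, n = 2 each). Meg3 had 93.6 and 75.2 normalised reads in OE Zscan4, against 42.0 and 59.7 in OE control. Its groups were closer together, with means of 84.4 ± 13.01 in OE Zscan4 and 50.8 ± 12.6 in OE control (SD, n = 2 each) and a log2 difference of 0.73 (SE 0.23). Mirg had 17.01 and 9.39 normalised reads in OE Zscan4, against 1.91 and 6.18 in OE control, which is 16 and 10 reads against 2 and 6. At this depth its ratio of reads of 3.27 had a counting interval of 1.44 to 8.37, and the log2 difference was 1.58 (SE 0.59), or 0.93 to 2.23 with 1 OE control library left out. The groups did not overlap for any of the 3, which 71.2% of all genes of the table also showed. The members' direction was thus the same in both arms, though Zscan4c was lower in KD Zscan4 and higher in OE Zscan4 than in their controls.

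**Figure D1:**
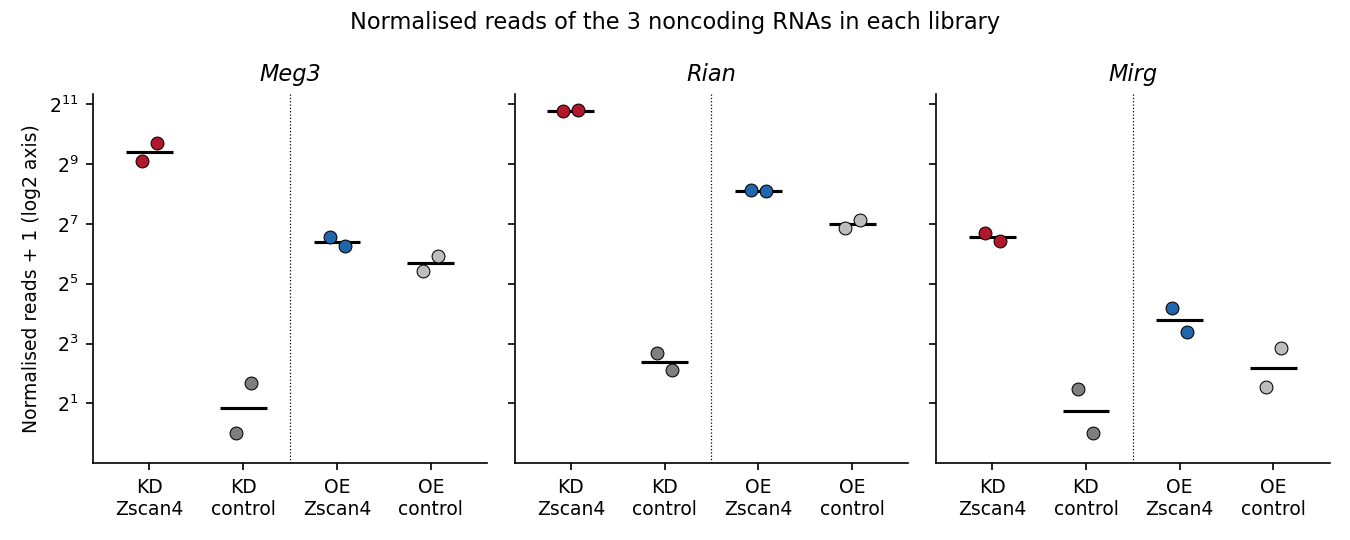
Normalised reads plus 1 (log2 axis) of Meg3, Rian and Mirg in each library, with points for libraries and a bar at the geometric mean of each group; the dotted line parts the arms, which were normalised separately. KD Zscan4 libraries are highest and KD control libraries lowest for each RNA, with Rian at 1726 and 1769 in KD Zscan4 against 5.37 and 3.37 in KD control.

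To set levels across the arms, the reads of 17409 genes in both tables were scaled jointly. The order was KD Zscan4, OE Zscan4, OE control, KD control for each of the 3 RNAs. KD Zscan4 stood above OE Zscan4 by ratios of reads of 8.25 (counting interval 7.02 to 9.74) for Meg3, 6.34 (5.79 to 6.94) for Rian and 7.17 (4.74 to 11.3) for Mirg. OE control cells in turn had 50.6 times (13.7 to 423) as much Meg3 and 28.1 times (14.6 to 62.2) as much Rian as KD control cells. For Mirg the controls could not be told apart at this depth, with 8 reads in OE control against 2 in KD control and a ratio of 3.97 (0.79 to 38.4). Clone, vector, selection drug and separate processing of the arms cannot be told apart from these differences. In bulk libraries fewer cells with an RNA and less RNA per cell cannot be told apart either.

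Per length of exon, Rian was the highest of the 3 in the groups other than KD control, which had too few reads for a ranking. In KD Zscan4 the mean levels per kilobase were 38.2 normalised reads for Meg3, 95.8 for Rian and 12.8 for Mirg. In OE Zscan4 they were 4.66, 15.1 and 1.81, and in OE control 2.81, 6.95 and 0.555, in the same order of genes. In KD control they were 0.062, 0.240 and 0.123, from 8 and 5 reads per library over all 3 genes.

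Rian was the largest part of the 3 genes' reads wherever there were enough reads to tell. Over the 6 libraries other than KD control, Rian had 65.8% to 76.3% of the 3 genes' reads, Meg3 21.1% to 31.0% and Mirg 1.20% to 4.38%. The lowest Rian share and the highest Meg3 share were both in KD Zscan4 replicate 2, at 65.8% (Wilson 95% interval 64.0% to 67.6%) and 31.0% (29.3% to 32.7%). Per Rian read there were 0.317 (counting interval 0.288 to 0.350) and 0.471 (0.434 to 0.511) Meg3 reads in the KD Zscan4 libraries, 0.337 and 0.276 in the OE Zscan4 libraries, and 0.364 and 0.433 in the OE control libraries. The KD Zscan4 libraries thus differed from each other beyond counting error. KD control, with 8 and 5 reads in all, is too shallow to give a make-up.

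**Figure D2:**
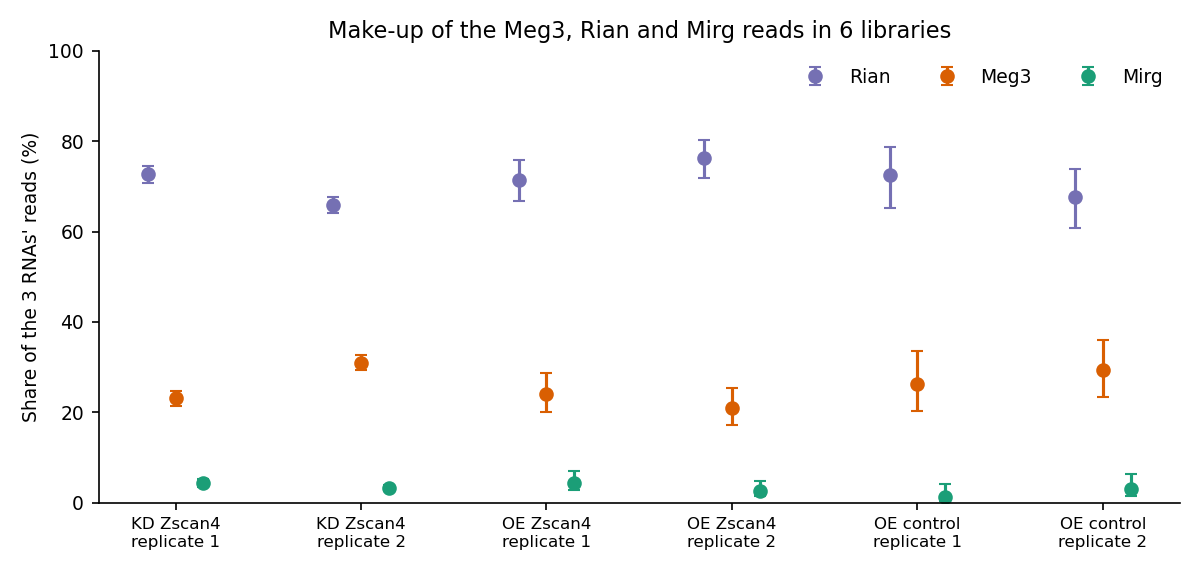
Share of the reads of Meg3, Rian and Mirg taken by each gene (%) in the 6 libraries outside KD control, with Wilson 95% intervals that cover counting error. Rian has 65.8% to 76.3% in every library shown.

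Among genes around the 3 RNAs, Rtl1, which lies between Meg3 and Rian, had more reads in KD Zscan4 than in KD control. Gm26906, which lies inside Meg3, had reads in KD Zscan4 only, and these cannot be told apart from those of Meg3 without strand. The other imprinted protein genes did not pass the test in either arm. Dlk1, a paternally expressed ligand-like protein that affects Notch signalling, had 136.0 and 132.0 normalised reads in KD Zscan4, against 99.4 and 110.1 in KD control, and did not pass the test (0.35, SE 0.15, limma adjusted p = 0.081). In the overexpression it had 57.4 and 43.2 in OE Zscan4, against 30.5 and 33.0 in OE control (0.64, SE 0.26, limma adjusted p = 0.060), and it passed only when all 8 libraries were fitted jointly (limma adjusted p = 0.016). Dio3, which inactivates thyroid hormone, had 8.12 and 9.71 normalised reads in KD Zscan4, against 18.8 and 5.62 in KD control (-0.21, limma adjusted p = 0.80). These few reads varied more within KD control than between groups, and in the overexpression Dio3 differed by -0.13 (limma adjusted p = 0.82).

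Rtl1, a retrotransposon-derived gene needed in the placenta, was higher in KD Zscan4. It had 21.3 and 23.3 normalised reads there, against 5.37 and 3.37 in KD control (log2 difference 2.14, SE 0.44). Rtl1 met the minimum of 19 reads only through KD Zscan4, so these values are a description and no p-value is given. The ratio of reads was 4.98 (45 against 9 reads, interval 2.40 to 11.6). An antisense transcript from the maternal chromosome overlaps Rtl1, and it is not stated that counting used strand, so the reads of both cannot be told apart. Gm26906, named after its values were seen, lies antisense within Meg3 and shares 1228 exonic bases with it, which is 6.79% of the exons of Meg3. It had 13.2 and 16.5 normalised reads in KD Zscan4, against 0 and 0 in KD control (30 against 0 reads). That is at least 9.96-fold higher against a floor of 3 reads over the group. Gm26906 met the minimum of 19 reads only through KD Zscan4, so its values are a description and no p-value is given. Reads from Meg3 and Gm26906 cannot be told apart without strand. Rtl1 and Gm26906 have no row in the overexpression table and are not analysed there.

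Of the 19 measured genes on a list of the region and its flanks, 7 were called in the knockdown (5 rose, 2 fell), with a median difference of 0.02 beside 0.01 over all genes. That share, 36.8%, is near the 35.7% of all genes. It counts Rtl1, which met the minimum of 19 reads only through KD Zscan4. Besides Rtl1, Slc25a29 (1.04), a mitochondrial amino acid carrier, Mok (0.75), a protein kinase, Cinp (0.42) and the chaperone Hsp90aa1 (0.25) rose. Evl (-0.45), an actin regulator, and Dync1h1 (-0.30), a heavy chain of cytoplasmic dynein, fell. Without the first KD control library, Slc25a29 (0.70, adjusted p = 0.13) and Hsp90aa1 (0.27, adjusted p = 0.091) no longer passed in limma. Slc25a29 was also lost when the first KD Zscan4 library was left out (0.97, limma adjusted p = 0.055), and Hsp90aa1 when the second KD control library was (0.22, limma adjusted p = 0.19).

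In the overexpression, 4 of 18 were called, 22.2% beside 44.3% of all genes, with a median of 0.09 beside -0.0022 over all genes. Yy1 (0.51), a zinc finger factor, Hsp90aa1 (0.40) and Wars (0.39), a tRNA synthetase, rose, and Slc25a29 (-1.05) fell. Without the second OE Zscan4 library, 2 were called, and Slc25a29 (-0.79, adjusted p = 0.088) and Hsp90aa1 (0.35, adjusted p = 0.15) no longer passed in limma, nor did Hsp90aa1 without the first (0.44, adjusted p = 0.073). By position, 6 of 24 measured genes within 1 Mb of the 3 RNAs were called in the knockdown (4 rose, 2 fell) and 4 of 20 in the overexpression (3 rose, 1 fell). These are 25% beside 35.7% and 20% beside 44.3% of all genes. The 4 that rose in the knockdown include Gm26906 and Rtl1, which met the minimum of 19 reads only through KD Zscan4. The overexpression count was 2 without OE Zscan4 replicate 2 and 7 in the joint fit of 8 libraries. Protein-coding genes of all of chromosome 12 with a mean of at least 20 had a median difference of 0.0081 in the knockdown (447 genes) and 0.0035 in the overexpression (446 genes).

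**Figure D3:**
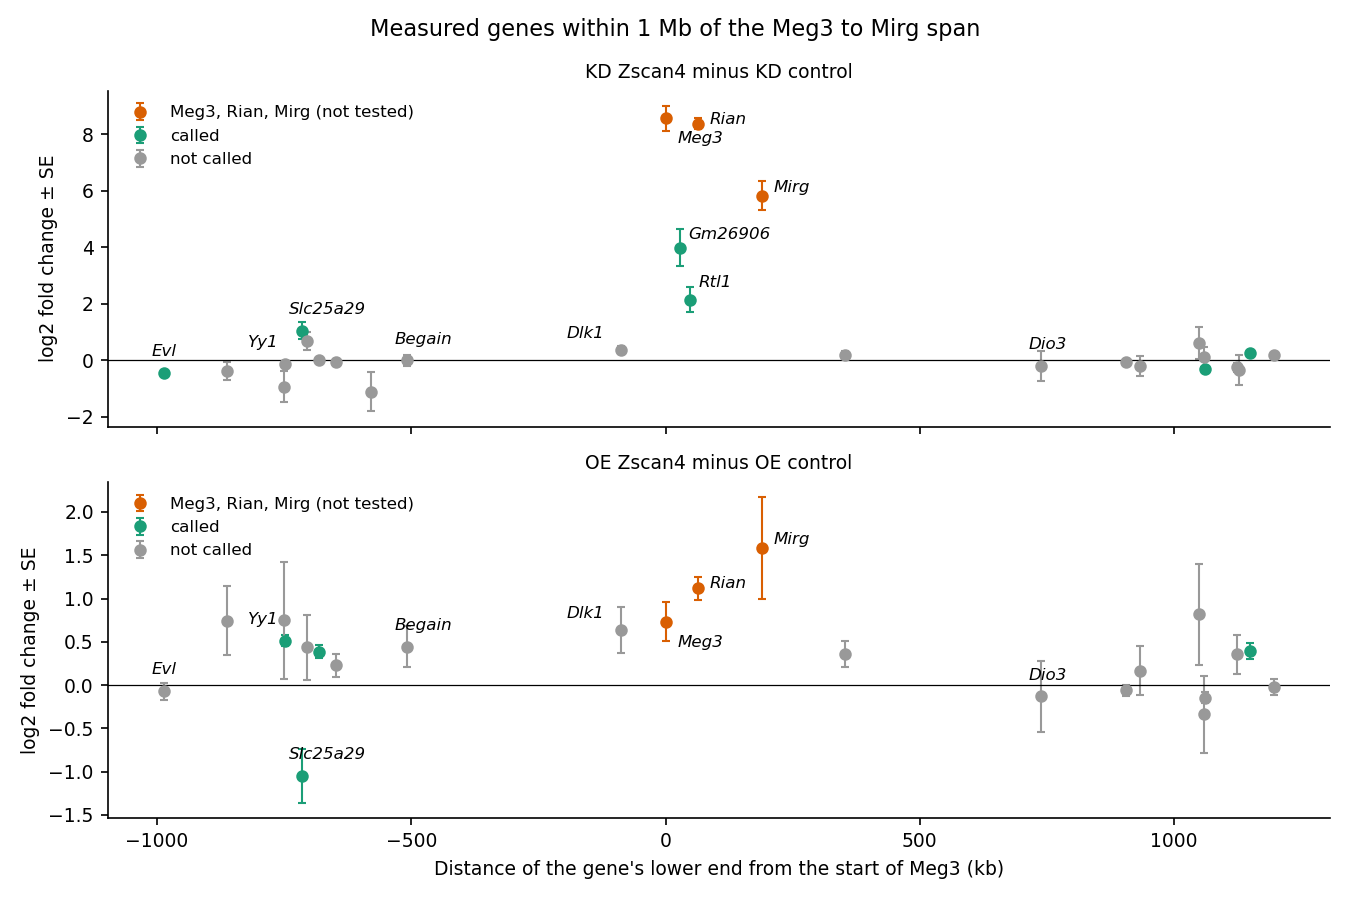
Log2 difference (Zscan4 group minus its control, ± SE) of measured genes within 1 Mb of the 3 RNAs, by distance from the start of Meg3 in kb, for the knockdown (top) and the overexpression (bottom); the vertical scales differ. In the knockdown Meg3 (8.55), Rian (8.37) and Mirg (5.82) stand above their neighbours, of which Gm26906, whose fitted value is no bound because KD control had 0 reads, and Rtl1 (2.14) are the highest.

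A list of genes known to set, keep or remove DNA methylation or silencing at imprinted regions was read beside the 3 RNAs. In the knockdown 18 of 26 measured were called, 69.2% beside 35.7% of all genes: 17 fell and 1 rose, with a median of -0.29. Dnmt3b, a de novo DNA methyltransferase, averaged 1795 ± 39.6 in KD Zscan4 and 4607 ± 84.6 in KD control (SD, n = 2 each), a log2 difference of -1.36 (limma adjusted p = 6.2e-09). Aff3 (-0.91), which binds the control region of Dlk1-Dio3 in mouse ES cells, the 5-methylcytosine oxidase Tet3 (-0.76) and the methyltransferase cofactor Dnmt3l (-0.71) fell too. Zfp57, which guards imprints with Trim28, averaged 5678 ± 195 in KD Zscan4 and 8067 ± 116 in KD control (SD, n = 2 each; -0.51, limma adjusted p = 1.0e-05). Suz12, a subunit of Polycomb repressive complex PRC2, was the member that rose (0.22, limma adjusted p = 0.037). Dppa3, an oocyte and ES cell protein that protects imprints, had 60.9 and 55.3 normalised reads in KD Zscan4, against 56.4 and 74.1 in KD control, and did not pass.

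In the overexpression 18 of 26 were called, 69.2% beside 44.3% of all genes, and here 14 rose and 4 fell, with a median of 0.31. Dnmt3a (1.14), the other de novo methyltransferase, Tet2 (1.02) and Zfp57 (0.98) rose. Zfp57 averaged 5889 ± 251 in OE Zscan4 and 2978 ± 170 in OE control (SD, n = 2 each; limma adjusted p = 6.2e-09). Dppa3 had 87.2 and 120 normalised reads in OE Zscan4, against 382 and 300 in OE control (-1.72, limma adjusted p = 2.2e-07). It fell together with Tet3 (-0.81), Aff3 (-0.71) and Suz12 (-0.48). Of 13 genes called in both arms, 10 were lower in KD Zscan4 and higher in OE Zscan4 than their controls. Of the rest, 1 went the opposite way and 2 went the same way. The matching shares over all genes were not counted, so these counts are not read as a trait of the list. Meg3, Rian and Mirg were higher in the Zscan4 group of each arm. The part of the listed genes in the levels of Meg3, Rian and Mirg was not tested. Aff3 lies on chromosome 1, whose coding genes had a median difference of 0.56 in the knockdown; without genes of chromosome 1, a count chosen after seeing the data, 17 of the list were called in each arm.

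**Figure D4:**
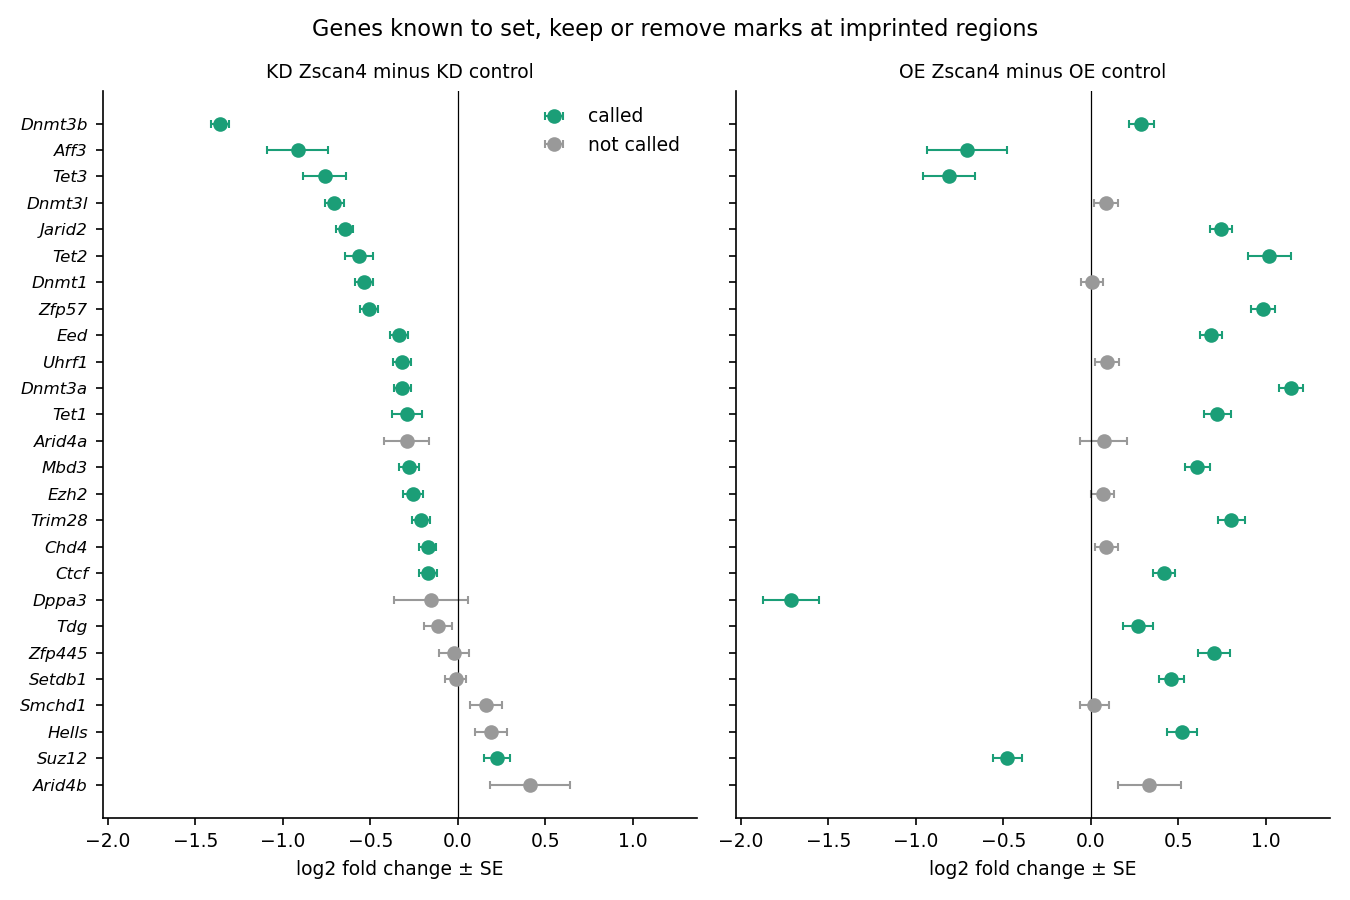
Log2 difference (Zscan4 group minus its control, ± SE) of 26 genes known to act on marks at imprinted regions, sorted by the knockdown value, with called genes in green. In the knockdown 17 fell and 1 rose, and in the overexpression 14 rose and 4 fell.

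Imprinted genes outside chromosome 12 were called in both directions. In the knockdown 17 of 41 measured were called, a share of 41.5% near the 35.7% of all genes: 4 rose and 13 fell, with a median of -0.14. Cdkn1c, a maternally expressed inhibitor of the cell cycle, averaged 96.9 ± 22.2 in KD Zscan4 and 695 ± 53.0 in KD control (SD, n = 2 each; -2.85, limma adjusted p = 5.6e-08). H19, another maternally expressed noncoding RNA, averaged 389 ± 50.1 in KD Zscan4 and 1196 ± 51.8 in KD control (SD, n = 2 each; -1.62, limma adjusted p = 1.3e-07), and Peg10 (-1.91) fell too. Usp29 (1.48), a paternally expressed deubiquitinase gene, rose. In the overexpression 25 of 41 were called, 61.0% beside 44.3% of all genes: 13 rose and 12 fell, with a median of 0.08. Zdbf2 (1.60) and Magel2 (1.51) rose, and Slc22a18 (-2.19) and the neuronal gene Nnat (-1.28) fell. Magel2 did not pass without the first OE Zscan4 library (0.86, limma adjusted p = 0.25).

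Other noncoding host transcripts, read as a comparison for Rian and Mirg, were counted in the same way. In the knockdown 6 of 22 measured were called, 27.3% beside 35.7% of all genes, with 3 higher and 3 lower and a median of 0.05. Mir17hg, the host of a microRNA cluster that favours growth, fell (-0.79), and the snoRNA hosts Snhg11 (0.74), Snhg6 (0.72) and Gas5 (0.47) rose, of which Snhg6 and Gas5 are on chromosome 1. In the overexpression 12 of 22 were called, 54.5% beside 44.3% of all genes: 4 rose and 8 fell, with a median of -0.19. Mir17hg (1.40), Snhg14 (0.89) and Tug1 (0.72) rose, and Snhg20 (-0.82) fell, though Snhg14 did not pass with DESeq2 (adjusted p = 0.066).

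Markers of other cell types were summed for each library beside the 3 RNAs. Single markers said to rise or fall were called. Of all genes, 17.2% were called higher and 18.5% lower in the knockdown. In the overexpression 22.3% were called higher and 22.1% lower. Markers of primitive endoderm, the extraembryonic layer that ES cultures can form, summed to 1773 to 1995 in KD Zscan4, against 10458 to 10768 in KD control, and 10 of 10 fell. Foxa2 was at 0 in KD Zscan4 replicate 1. In the overexpression they summed to 1652 to 1698 in OE Zscan4, against 2503 to 2622 in OE control, and 7 of 9 fell. Sox17 (-0.85) and Sox7, which was higher in OE Zscan4 (1.02), did not pass. Libraries with more of the 3 RNAs than their own control thus had less of the primitive endoderm markers in both arms. The mesoderm and fibroblast sums given below were also lower in both arms, though the knockdown fibroblast sum was lower through Twist1. Across the separately normalised arms the relation to endoderm markers did not hold: OE Zscan4 had the lowest endoderm sums but less of each RNA than KD Zscan4. The summed neural ectoderm markers were at 5737 to 5937 in KD Zscan4, against 4518 to 4556 in KD control, and at 5419 to 5538 in OE Zscan4, against 2991 to 3089 in OE control. By gene, 2 rose and 5 fell of 7 measured neural markers in the knockdown, and 3 rose and 2 fell of 6 in the overexpression. The higher knockdown sum came from Tubb3, a neuronal tubulin (0.71, limma adjusted p = 9.0e-07); without it, a sum chosen after seeing the data, the rest summed to 1016 and 1033 in KD Zscan4, against 1629 and 1578 in KD control. Without Tubb3 the overexpression sums were 1020 and 1013 in OE Zscan4, against 940.2 and 965 in OE control. Mesoderm markers summed to 142 to 174 in KD Zscan4, against 222 to 259 in KD control, and to 166 to 167 in OE Zscan4, against 209 to 230 in OE control. By gene, 1 of 8 mesoderm markers fell in the knockdown (12.5%) and 2 of 8 in the overexpression (25%), and none rose. These shares are near the 18.5% and 22.1% of all genes called lower. The trophectoderm sums were 2467 to 2575 in KD Zscan4, against 2180 to 2190 in KD control, and 2176 to 2262 in OE Zscan4, against 2440 to 2755 in OE control. In the knockdown Tfap2c (0.76) rose, while Cdx2 (-1.13), Krt8 (-0.69) and Eomes (-0.67) fell, and without Tfap2c the sums were 879 and 865 in KD Zscan4, against 1220 and 1197 in KD control. In the overexpression 2 of 6 measured trophectoderm markers fell and none rose. The fibroblast sums, from 6 measured markers in the knockdown and 5 in the overexpression, were 309 to 313 in KD Zscan4, against 331 to 346 in KD control, and 288 to 290 in OE Zscan4, against 530 to 571 in OE control. By gene, Thy1 (0.91) rose and Twist1 (-2.85) fell in the knockdown, and Col1a1 (-1.13) and Thy1 (-0.98) fell in the overexpression. The lower knockdown sum came from Twist1, with 17.3 and 15.5 in KD Zscan4, against 115 and 135 in KD control. The median difference of the 6 knockdown markers was 0.07. The part of these cell types in the levels of the 3 RNAs was not tested.

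**Figure D5:**
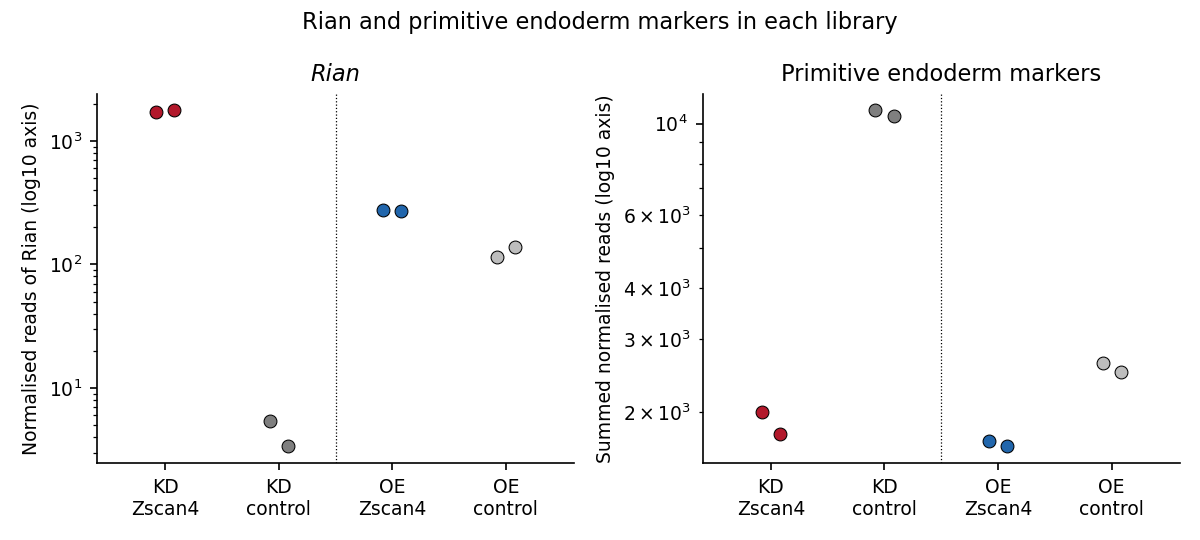
Normalised reads of Rian (left) and summed normalised reads of 10 primitive endoderm markers, 9 of them measured in the overexpression (right), in each library, on log10 axes; points are libraries and the dotted line parts the arms. Rian is lowest and the marker sum highest in KD control, at 10458 to 10768 against 1773 to 1995 in KD Zscan4.

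Among 672 genes of both tables with a mean of at least 20 reads and group means at least 2 apart on the log2 scale, the 5 outside the region whose level most resembled the mean log2 level of the 3 RNAs were sought over the 8 libraries, which fall into 4 group levels. Pearson's r was 0.985 for Steap3, a metalloreductase on chromosome 1, 0.961 for Mobp, a myelin protein, 0.957 for Stra8, a retinoic acid-induced gene needed for entry into meiosis, 0.943 for Ephx2, an epoxide hydrolase, and 0.932 for Gm20005. Steap3 had 1800 and 1787 jointly scaled reads in KD Zscan4, 1178 and 1177 in OE Zscan4, 902 and 923 in OE control, and 334 and 372 in KD control. Its order of groups was that of the 3 RNAs, over a smaller range. Stra8 had 2322 and 2199 in KD Zscan4, 1613 and 1887 in OE Zscan4, 1393 and 1126 in OE control, and 509 and 519 in KD control. Mobp ran in the same order, with 429 and 417 in KD Zscan4, 313 and 342 in OE Zscan4, 233 and 214 in OE control, and 74.8 and 87.9 in KD control. Ephx2 and Gm20005 were highest in KD Zscan4 and lowest in KD control as well, but their OE Zscan4 and OE control libraries overlapped.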

How the data were processed

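Messenger RNA was profiled in 8 libraries of J1 ES cells, made with random priming and 11 PCR cycles, per the labels' protocols. Per the submitters' processing notes, the tools were cutadapt, HISAT2, featureCounts and DESeq2 with mm10; versions and strand setting are not given in the sources used here. The authors deposited 2 gene tables, 1 per arm, as signal values: tested on the files, whole reads divided by 1 factor per library (100% within 0.01 of a whole number). Every gene kept has at least 19 reads in its table, so genes below that are not analysed here. Repeat tables were not used.

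Values were tested per arm with limma-trend 3.58.1 (R 4.3.3) on log2(value + 1), Zscan4 group minus control, two-sided, with Benjamini-Hochberg adjustment over 17938 and 18292 genes. Fold changes on this scale understate those of low genes. The planned rule for normalised values was applied because the deposited values are not counts. edgeR 4.0.16 (quasi-likelihood) and DESeq2 1.42.0 on the recovered reads were alternatives, and edgeR's TMM gave the joint scaling. The procedure was tested on simulated data, where unchanged genes made up a larger share of the calls than the false discovery rate set. Far fewer genes were changed there than were called here, so that share need not hold for these calls. Calls near the threshold may still be less sure than that rate states. Replicates of a group differed by more than sampling noise (chi-square per degree of freedom 2.94 to 4.96). Symbols and coordinates were matched for 17913 and 18259 identifiers. Intervals are 95% (exact for ratios of reads, Wilson for shares). Named were the 3 RNAs, the imprinted genes and called flanks of the region, Zscan4c, up to 4 called members of each list per arm with the largest change, and the 5 most alike genes; Zfp57 and Dppa3 in the knockdown, Suz12 and Tet3, Aff3 in the overexpression, individual markers of cell types and Gm26906 were added after their values were seen. The members and lists were chosen with earlier results of these data known.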

Additional observations from a re-analysis of the deposited data

How the results depend on the processing

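Meg3, Rian and Mirg kept their direction in both arms under every alternative run. Their log2 differences ranged over 6.82 to 9.42, 7.56 to 8.64 and 4.07 to 6.56 in the knockdown, with 0.48 to 0.98, 0.99 to 1.25 and 0.93 to 2.23 in the overexpression. A pseudocount of 5 gave the lowest knockdown values (Meg3 6.82, Rian 7.56, Mirg 4.07), since it weighs more beside the few KD control reads. DESeq2 called 4141 knockdown genes, against 6403 with limma; the cause was not tested. Within 2 Mb, which holds more genes, 13 of 57 neighbours were called in the knockdown, 22.8% beside 35.7% of all genes. Gm26906 and Rtl1, kept only through their KD Zscan4 reads, are among them. In the overexpression 12 of 55 were called, 21.8% beside 44.3% of all genes. The joint fit of 8 libraries called 7 overexpression neighbours within 1 Mb. Leaving out 1 library gave 4416 to 6087 knockdown calls and 5964 to 7975 overexpression calls. The region list then had 2 to 6 calls and the neighbours 2 to 6 in the overexpression, the lowest of each without OE Zscan4 replicate 2. Dio3, never called, ranged from -1.003 to 0.58 in the knockdown (positive without KD control replicate 1) and from -0.45 to 0.19 in the overexpression (positive without OE control replicate 2, at 0.09, or OE Zscan4 replicate 2). Dlk1 passed in the overexpression in the joint fit alone (0.64, adjusted p = 0.016). With DESeq2, Hsp90aa1 (knockdown), Snhg14 (overexpression) and Slc25a29 (both arms) did not pass. With the replicate number as a block, 6924 and 8188 genes were called; same-numbered libraries did not deviate together (correlation -0.059 and -0.039), so the numbers are only names. With 0 to 6 reads per library, KD control limits how precisely the knockdown ratios are known.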
